A study of Mus musculus with 8 samples.

Results

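The genes described here encode the main general chaperones of the cell: the cytosolic HSP70 proteins (Hspa1a, Hspa1b and Hspa8), their helpers Hsph1 and Bag3, the cytosolic HSP90 pair (Hsp90aa1 and Hsp90ab1), and the mitochondrial set (Hspa9, Hspd1 and Hspe1). They were taken by name from the expression table of pineal glands, where they were 10 of 53710 gene rows. All 10 had a mean of at least 1 FPKM and so were among the 13094 protein-coding genes that were tested. FPKM counts fragments per kilobase of transcript, scaled to the mapped fragments of the library, so levels of different genes can be set side by side.

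Total RNA was sequenced from 4 libraries of 5xFAD pineal glands (named 5xFAD-1, 5xFAD-2, then 5xFAD-3 and 5xFAD-21) and 4 libraries of wild type pineal glands (Normal-11, Normal-21, Normal-22 and Normal-23), to find RNAs whose levels differ in the gland of an Alzheimer's disease model. 5xFAD mice carry human transgenes with familial Alzheimer's disease mutations, driven by the neuronal Thy1 promoter, on a B6.Cg background, and the wild type mice were C57BL/6. All mice were male, 5 months old and killed under ether at Zeitgeber time 0.5 h, soon after lights on, and each library pooled the glands of 5 to 7 mice. The 5xFAD and wild type mice came from different suppliers, so that genotype and source cannot be told apart. Thy1 itself stood at 3.77 ± 2.25 FPKM in 5xFAD and 3.19 ± 2.41 FPKM in wild type libraries (SD, n = 4 each), and the mouse App gene at 307 ± 35.3 FPKM in 5xFAD and 322 ± 20.9 FPKM in wild type libraries. The human transgenes are not among the annotated mouse genes, so the genotype labels could not be checked on them. In what follows, the values of a gene are given in the order of the libraries listed above.

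Chaperones of the HSP70 family bind stretches of unfolded protein in a cycle of ATP binding and hydrolysis, are loaded by J-domain proteins such as DNAJB1 and are reset by nucleotide exchange factors, and HSP90 takes over many signalling proteins from HSP70 for their last folding steps. In mitochondria, HSPA9 (mortalin) pulls imported chains through the membrane, and HSPD1 (HSP60) with its lid HSPE1 (HSP10) folds them in a closed chamber. When unfolded proteins build up, the transcription factor HSF1 binds heat shock elements, arrays of the triplet GAA and its reverse complement TTC, and drives Hspa1a and Hspa1b from low levels, while Hspa8 is made at all times. The pineal gland, whose pinealocytes make melatonin, was checked on 12 pinealocyte markers, and all 12 had a mean of at least 1 FPKM, with summed levels of 2151 to 3489 FPKM in 5xFAD and 1383 to 3160 FPKM in wild type libraries.

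RefSeq promoters (GRCm38.p6, 250 bases before to 50 bases after the start of transcription) were matched for 6 of the 10 genes, Hspa1a, Hspa1b, Hsph1, Hspd1, Hspe1 and Bag3, at 8 start sites. The heat shock element was searched as GAANNTTCNNGAA on both strands, and 198 of 32851 mouse promoters of this length (0.603%) held it. Those of 3 genes did, namely Hspd1, Hspe1 and Hsph1. No mismatched base was allowed in the triplets, so the lack of a match does not show that an element is absent. The 2 genes with the largest differences between libraries, Hspa1a and Hspa1b, are shown first, because their promoters are near copies of each other. Their capitals mark the pair of triplets GAANNTTC that was the only match there to the shorter pattern (GAANNTTC or TTCNNGAA, found in 15.1% of all promoters). It lay from 104 to 97 bases before the start in both genes.
Hspa1a, chr17:34972107-34972406, minus strand: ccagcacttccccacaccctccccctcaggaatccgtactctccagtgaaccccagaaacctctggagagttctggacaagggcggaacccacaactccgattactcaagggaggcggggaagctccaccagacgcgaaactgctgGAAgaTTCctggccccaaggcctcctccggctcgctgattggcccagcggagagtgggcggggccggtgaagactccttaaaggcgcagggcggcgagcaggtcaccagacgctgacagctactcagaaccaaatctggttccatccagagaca
Hspa1b, chr17:34959189-34959488, minus strand: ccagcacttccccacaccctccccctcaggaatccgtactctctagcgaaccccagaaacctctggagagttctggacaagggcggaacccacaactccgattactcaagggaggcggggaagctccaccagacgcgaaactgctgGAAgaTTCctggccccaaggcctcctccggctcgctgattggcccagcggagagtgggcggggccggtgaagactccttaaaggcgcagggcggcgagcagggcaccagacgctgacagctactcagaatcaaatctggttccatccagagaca

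These 300-base promoters were 98.7% identical, with 4 mismatches. The longest open reading frames of the transcripts were 99.6% identical, with 8 mismatches in 1926 aligned bases, whereas the 3′ untranslated regions were 62.6% identical. Reads of the coding part therefore cannot always be assigned to Hspa1a or to Hspa1b, and each gene's own level is less certain than their sum. For comparison, the open reading frames of Hspa1a and the constitutive Hspa8 were 75% identical, and those of Hsp90aa1 and Hsp90ab1 were 76.8% identical.

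Hspd1 and Hspe1 lie head to head and share their control region. The promoter of Hspe1 is shown next, with the GAA and TTC triplets of the heat shock element in capitals. It held a run of 4 alternating triplets in 18 bases, at chr1:55088059-55088076, which lay from 89 to 72 bases before the start of Hspe1. The same run lay from 144 to 127 bases before 1 of the 2 start sites of Hspd1, and the window of its other start site did not hold the pattern.
Hspe1, chr1:55087898-55088197, plus strand: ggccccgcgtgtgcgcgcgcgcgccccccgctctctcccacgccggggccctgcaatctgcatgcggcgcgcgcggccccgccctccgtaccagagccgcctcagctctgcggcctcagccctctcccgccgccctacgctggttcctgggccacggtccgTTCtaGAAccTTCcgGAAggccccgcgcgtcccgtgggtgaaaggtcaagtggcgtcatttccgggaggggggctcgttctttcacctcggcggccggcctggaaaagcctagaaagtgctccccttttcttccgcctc

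In Hsph1 the element of 3 triplets lay downstream of the start, from 16 to 28 bases after 1 of its 2 start sites and from 37 to 49 bases after the other, at chr5:149636288-149636300. It is shown in capitals within 53 bases.
Hsph1, chr5:149636268-149636320, minus strand: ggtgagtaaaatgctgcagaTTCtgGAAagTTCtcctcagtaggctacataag

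Bag3 held the shorter pattern alone, from 43 to 50 bases after its start. A match of letters does not show that HSF1 was bound there.

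In 5xFAD compared with wild type glands, all 10 chaperone genes had a mean level above that of wild type, by 0.23 (Hsp90ab1) to 2.27 (Hspa1b) on the log2(FPKM + 0.1) scale, which understates changes of low genes. The median of the 10 was 0.44, and that of all genes tested was −0.01. None of the 10 passed the test (limma with Benjamini-Hochberg adjustment over all genes tested, adjusted p under 0.05), and 5 of all 13094 genes did (0.0382%). Without adjustment, at p under 0.05, 5 of the 10 were higher in 5xFAD (Hspa1b, Hspa8, Hsph1, Hsp90aa1 and Hspe1), beside 4.6% of all genes, and 0 were lower, beside 3.35% of all genes. A log2 fold change above 0 was found in 48.7% of all genes. Because these genes were measured in the same libraries and may vary together, their common direction does not count as 10 separate observations.

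**Figure D1:**
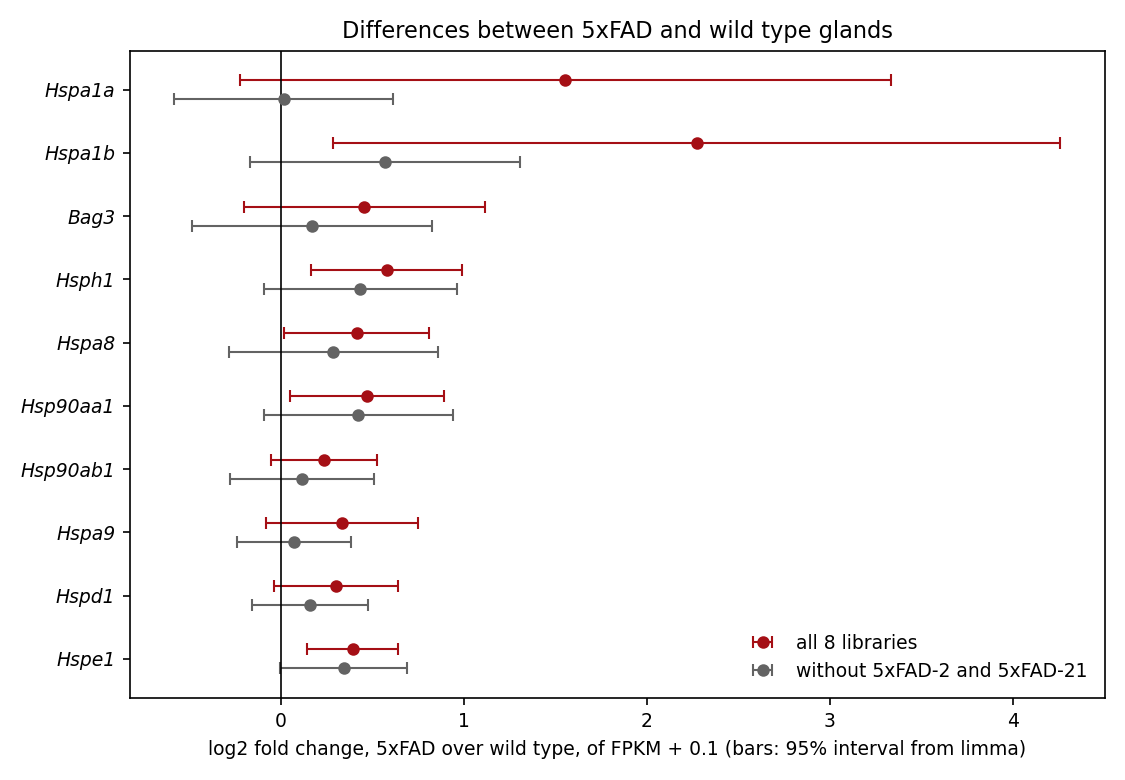
Differences between 5xFAD and wild type glands for the 10 chaperone genes, as log2 fold changes of FPKM + 0.1 with 95% intervals from limma, over all 8 libraries and with 5xFAD-2 and 5xFAD-21 left out. All 10 points lie above 0 in both, and the median is 0.44 over all libraries and 0.23 without those 2 libraries.

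Hspa1a (ENSMUSG00000091971.3, chr17:34969190-34972156) and Hspa1b (ENSMUSG00000090877.3, chr17:34956436-34959238) encode the stress-inducible HSP70 from the minus strand, with start sites 12918 bases apart. Hspa1a stood at 1.54, 23.4, 1.88 and 9.75 FPKM in 5xFAD libraries, against 1.83, 1.85, 1.53 and 1.54 FPKM in wild type libraries. Its level was thus high in 5xFAD-2 and 5xFAD-21 and close to the wild type level in 5xFAD-1 and 5xFAD-3, and the groups overlapped. Relative to the wild type mean it was 13.9-fold in 5xFAD-2 and 5.78-fold in 5xFAD-21. The means were 9.14 ± 10.2 FPKM in 5xFAD and 1.69 ± 0.173 FPKM in wild type libraries (SD, n = 4 each), a log2 fold change of 1.55 (SE 0.78, limma adjusted p = 0.641).

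Hspa1b followed the same libraries, at 1.95, 39.7, 2.43 and 14.6 FPKM in 5xFAD, against 2.05, 1.37, 1.20 and 1.25 FPKM in wild type. In 5xFAD-2 it was 27.0-fold and in 5xFAD-21 9.96-fold the wild type mean, 5xFAD-3 was above every wild type library, and 5xFAD-1 lay below Normal-11 alone. The log2 fold change was 2.27 (95% interval 0.29 to 4.26, limma adjusted p = 0.60). With 5xFAD-2 and 5xFAD-21 left out, the log2 fold change of Hspa1a was 0.02 (SE 0.25) and that of Hspa1b 0.57 (SE 0.31), so that the difference in Hspa1a rested on those libraries. Correlated over the 8 libraries on the log2 scale, the pair had r = 0.99, the closest of the 45 pairs among the 10 genes.

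Hspa1b took 55.9% to 62.9% of the summed FPKM of the pair in 5xFAD and 42.6% to 52.9% in wild type libraries, with no overlap. The mean share was 58.8% ± 3.32 in 5xFAD and 46.0% ± 4.64 in wild type (SD, n = 4 each, exact permutation p = 0.0286, the smallest that 70 splits allow, and adjusted p = 0.114 over the 4 ratios tested). In 5xFAD-1 and 5xFAD-3, where the sum of the pair was only 3.48 and 4.31 FPKM, the share was 55.9% and 56.3%. Because reads of the coding part are shared, this split depends on how the authors' software divided them.

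**Figure D2:**
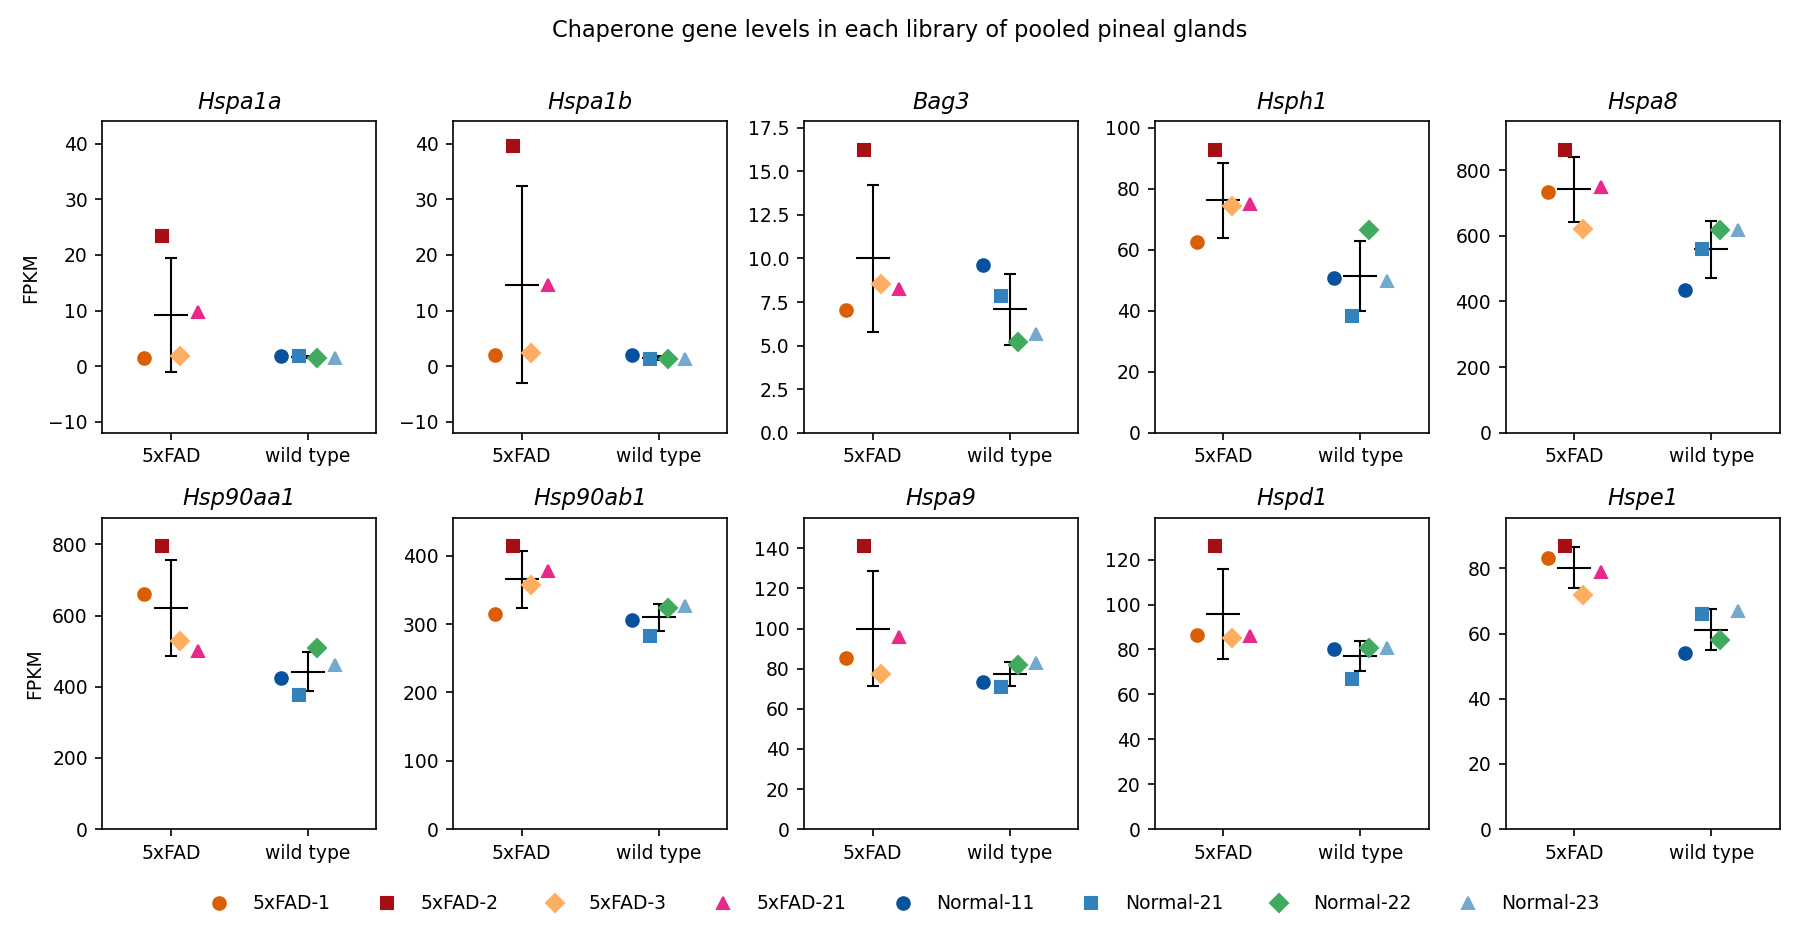
FPKM of the 10 chaperone genes in each library, with 5xFAD left of wild type in every panel. Each point is a library of pooled glands, horizontal marks are group means and vertical bars their SD (n = 4 each), and the axes of Hspa1a and Hspa1b start below 0 to hold the bar. Hspa1a and Hspa1b are high in 5xFAD-2 and 5xFAD-21 alone, and Hspa8, Hspd1 and Hspe1 are higher in every 5xFAD library than in every wild type library.

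Hspa8 (ENSMUSG00000015656.17, chr9:40800984-40810087, plus strand), the constitutive HSP70 that also uncoats clathrin vesicles and serves chaperone-mediated autophagy, was the most abundant of the 10, ranking 33 among all genes tested. It stood at 735, 862, 619.0 and 749 FPKM in 5xFAD libraries, against 434, 561, 618.4 and 618.9 FPKM in wild type libraries. The groups did not overlap, but 5xFAD-3, Normal-22 and Normal-23 were within 1 FPKM of each other. The mean was 741 ± 99.3 FPKM in 5xFAD and 558 ± 86.9 FPKM in wild type, a log2 fold change of 0.41 (SE 0.17, 95% interval 0.02 to 0.81, limma adjusted p = 0.613). Hspa1a and Hspa1b together made up 0.472%, 6.82%, 0.692% and 3.15% of the cytosolic HSP70 transcripts (these plus Hspa8) in 5xFAD, and 0.440% to 0.884% in wild type libraries (exact permutation p = 0.2, adjusted p = 0.381), so that Hspa8 held most of this pool in every library.

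Hsph1 (ENSMUSG00000029657.15, chr5:149614287-149636376, minus strand) encodes HSP110, which exchanges the nucleotide of HSP70 and with it dissolves aggregates. Its levels were 62.7, 92.8, 74.3 and 74.9 FPKM in 5xFAD, against 50.9, 38.4, 66.5 and 49.96 FPKM in wild type. Normal-22 lay above 5xFAD-1, and the other libraries were parted by genotype. The log2 fold change of 0.58 (SE 0.18, 95% interval 0.17 to 0.99, limma adjusted p = 0.559) was the largest of the abundant genes, and it was 0.43 (SE 0.22) without 5xFAD-2 and 5xFAD-21.

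Bag3 (ENSMUSG00000030847.8, chr7:128523616-128546981, plus strand), an exchange factor that links HSP70 to small heat shock proteins and to selective autophagy, stood at 7.03, 16.2, 8.56 and 8.22 FPKM in 5xFAD, against 9.64, 7.82, 5.22 and 5.66 FPKM in wild type. Normal-11 was above every 5xFAD library other than 5xFAD-2, and the groups overlapped widely. The log2 fold change was 0.46 (SE 0.29, limma adjusted p = 0.699). Bag3 was the only one of the 10 genes whose second-highest library was wild type.

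The cytosolic HSP90 genes were the most abundant after Hspa8. Hsp90aa1 (ENSMUSG00000021270.13, chr12:110690605-110702728, minus strand), the stress-responsive form, stood at 660, 796, 528 and 501 FPKM in 5xFAD, against 425, 376, 508 and 462 FPKM in wild type. The libraries overlapped only in that Normal-22 was above 5xFAD-21. The log2 fold change was 0.47 (SE 0.19, 95% interval 0.05 to 0.89, limma adjusted p = 0.601).

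Hsp90ab1 (ENSMUSG00000023944.14, chr17:45567775-45573271, minus strand), the form made at all times, stood at 315, 414, 357 and 377 FPKM in 5xFAD, against 306, 283, 324 and 326 FPKM in wild type. 5xFAD-1 lay below Normal-22 and Normal-23, and the other 5xFAD libraries lay above all of wild type. With a log2 fold change of 0.23 (SE 0.13, limma adjusted p = 0.654) it differed least of the 10. Hsp90aa1 made up 67.7%, 65.8%, 59.7% and 57.1% of the summed HSP90 pair in 5xFAD, and 58.2%, 57.1%, 61.1% and 58.6% in wild type libraries. The highest shares were in 5xFAD-1 and 5xFAD-2, and the difference between the groups was within their spread (62.6% ± 5.02 in 5xFAD and 58.7% ± 1.68 in wild type, exact permutation p = 0.286, adjusted p = 0.381).

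Among the mitochondrial chaperones, Hspa9 (ENSMUSG00000024359.10, chr18:34937414-34954357, minus strand) stood at 85.1, 141, 77.2 and 96.0 FPKM in 5xFAD, against 73.4, 71.0, 81.9 and 82.9 FPKM in wild type. 5xFAD-3 lay within the wild type range, and 5xFAD-2 far above all others. The log2 fold change was 0.33 (SE 0.18, limma adjusted p = 0.656), and it was 0.07 (SE 0.13) without 5xFAD-2 and 5xFAD-21.

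Hspd1 (ENSMUSG00000025980.14, chr1:55077835-55088243, minus strand) stood at 86.6, 126, 85.1 and 86.1 FPKM in 5xFAD, against 80.1, 66.8, 80.6 and 80.5 FPKM in wild type. Every 5xFAD library was above every wild type library, with 3 libraries of each group close together and 5xFAD-2 high and Normal-21 low. The log2 fold change was 0.30 (SE 0.15, limma adjusted p = 0.641).

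Hspe1 (ENSMUSG00000073676.4, chr1:55088132-55091307, plus strand) stood at 83.3, 86.9, 71.9 and 78.9 FPKM in 5xFAD, against 54.1, 66.0, 58.0 and 66.9 FPKM in wild type. The groups did not overlap, and here no single 5xFAD library stood out. Its mean was 80.3 ± 6.42 FPKM in 5xFAD and 61.2 ± 6.22 FPKM in wild type, a log2 fold change of 0.39 (SE 0.11, 95% interval 0.14 to 0.64) with the lowest p of the 10 (limma adjusted p = 0.545). Without 5xFAD-2 and 5xFAD-21 it was 0.34 (SE 0.14).

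HSP60 and HSP10 work together, and the ratio of Hspe1 to Hspd1 averaged 0.853 ± 0.119 in 5xFAD and 0.803 ± 0.139 in wild type (exact permutation p = 0.629). The transcribed regions of Hspd1 and Hspe1 overlap by 112 bases on opposite strands, where reads can be assigned only if the counting used the strand. Hspa8, Hspd1 and Hspe1 were the 3 of the 10 genes with no overlap between groups, beside 2.11% of all genes in that direction.

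In both groups the order of levels fell into tiers. Hspa8 and Hsp90aa1 came first, with overlapping ranges (619.0 to 862 and 501 to 796 FPKM in 5xFAD, and 434 to 618.9 and 376 to 508 FPKM in wild type). Hsp90ab1 followed below the range of Hsp90aa1 in each group. Hspa9, Hspd1, Hspe1 and Hsph1 formed the next tier with means of 76.2 to 99.9 FPKM in 5xFAD and 51.5 to 77.3 FPKM in wild type, whose neighbours overlapped. Bag3, Hspa1a and Hspa1b were lowest, and while Bag3 was above both in every wild type library, both exceeded it in 5xFAD-2 and 5xFAD-21.

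The 10 genes varied together between libraries. 5xFAD-2 was the highest of the 8 libraries in 10 of 10 genes, and 5xFAD-21 was second in 6, 5xFAD-1 in 3 and Normal-11 in 1. These ranks are of FPKM as deposited. 5xFAD-2 also had the largest FPKM sum over protein-coding rows (391275, against at most 365492 in the other libraries). Ranks after scaling to the same total were not computed. The lowest library was Normal-21 in 5 genes, Normal-22 in 3 and Normal-11 in 2. Summed over the 10 genes, levels were 2037, 2598, 1825 and 1996 FPKM in 5xFAD, against 1437, 1473, 1746 and 1696 FPKM in wild type libraries, so that every 5xFAD sum was above every wild type sum. Over the 8 libraries, which the genes share, all 45 pairs of genes had a correlation above 0, with a median r of 0.74 and the lowest, 0.30, between Hspa8 and Bag3. These correlations include the difference between the groups, and correlations within each group were not computed. In bulk glands, a change in the number of cells that make a transcript and a change in the amount per cell cannot be told apart.

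**Figure D3:**
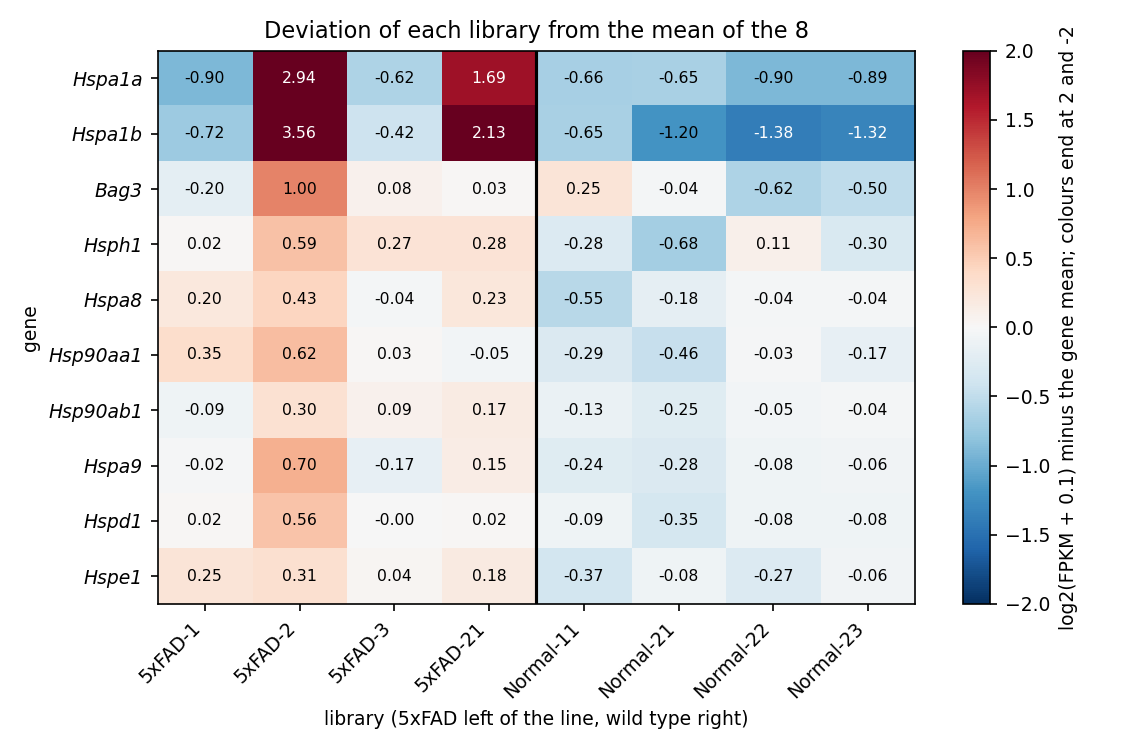
Deviation of each library from the gene's mean of log2(FPKM + 0.1) over the 8 libraries, for the 10 chaperone genes, with 5xFAD libraries left of the line and wild type libraries right of it. The column of 5xFAD-2 is the highest in 10 of 10 genes, and 5xFAD-21 is second in 6, in FPKM as deposited and not scaled to library totals.

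Leaving out libraries changed how many of the 10 had an unadjusted p under 0.05. Without 5xFAD-2 there were 2 (Hspe1 and Hsph1) in place of 5, beside 3.09% of all genes in place of 4.6%, with a median log2 fold change of 0.34. Without 5xFAD-2 and 5xFAD-21 there were 0, beside 2.44% of all genes, although all 10 log2 fold changes were still above 0, with a median of 0.23. The count also fell when a wild type library was left out, and so did the share of all genes, with 2 of the 10 beside 2.28% of all genes without Normal-21, 3 beside 3.22% without Normal-11 and 3 beside 2.86% without Normal-23. Without Normal-22 it was 4, beside 9.65% of all genes.

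The study's quality table gives a low share of unread bases for Normal-11 and all 5xFAD libraries but 5xFAD-21 and a high one for 5xFAD-21 and the other 3 wild type libraries. Within these classes, which hold 3 against 1 and 1 against 3 libraries and give no test, all 20 differences were above 0. For Hspa8 the difference was 0.75 among the low-share libraries and 0.32 among the high-share libraries, for Hsp90aa1 0.62 and 0.17, and for Bag3 0.04 and 0.42. The same quality table gives a GC content of the reads that parts all 5xFAD from all wild type libraries, so that genotype and read composition cannot be told apart.

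Levels of other genes set 5xFAD-2 apart. The sum of 10 brown fat markers was 2177 FPKM there, against 46.97 to 122.3 FPKM in the other 7 libraries, with Ucp1, the uncoupling protein of brown fat, at 516 FPKM and at most 0.193 FPKM elsewhere. Of the choroid plexus markers, Ttr was listed at 0 in all 4 5xFAD libraries and stood at 9440 to 19630 FPKM in wild type libraries. The cause of these 0 values was not tested. The other 7 choroid plexus markers summed to 219, 789, 705 and 1104 FPKM in 5xFAD, against 805, 754, 558 and 791 FPKM in wild type. Thus 5xFAD-1 was lowest and 5xFAD-21 highest, and the groups overlapped. Among them Otx2, also a pinealocyte marker, stood at 164 FPKM in 5xFAD-1 and made up most of the sum in that library. Xist, the RNA of the inactive X chromosome, stood at 13.3 FPKM in Normal-22, against at most 0.0404 FPKM in the other 7 libraries, although all mice were described as male. Meningeal fibroblast markers (8 genes) summed to 805, 989, 805 and 385 FPKM in 5xFAD, against 2378, 2056, 453 and 1214 FPKM in wild type. Such sums weigh abundant genes most, and the genes of this list did not all move alike. Col1a2 stood at 216, 336, 218 and 56.0 FPKM, against 1203, 994, 92.0 and 626 FPKM. Aldh1a2 stood at 11.7, 13.5, 14.1 and 5.90 FPKM, against 8.94, 8.13, 6.90 and 7.93 FPKM. For 8 osteoblast and osteocyte markers the sums were 60.4, 66.0, 47.3 and 21.4 FPKM, against 144, 134, 31.7 and 94.7 FPKM. The 12 pinealocyte markers summed to 3489, 3134, 2151 and 2311 FPKM, against 1609, 1383, 3160 and 1999 FPKM. Of these, Tph1 alone stood at 1630, 1900, 741 and 737 FPKM, against 643, 613, 1236 and 968 FPKM. In each of these lists the groups overlapped. The part of these differences in the chaperone values was not tested, and without 5xFAD-2 and Normal-22 the median log2 fold change of the 10 genes was 0.36, with 2 higher at an unadjusted p under 0.05 in place of 5, beside 8.33% of all genes in place of 4.6%.

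The libraries high in Hspa1a were also high in immediate early genes, which cells switch on within minutes of many stimuli. Fos, a subunit of the AP-1 transcription factor, stood at 1.23, 69.0, 1.11 and 43.1 FPKM in 5xFAD, against 2.23, 2.04, 1.67 and 0.918 FPKM in wild type, and Egr1, a zinc finger factor, at 1.91, 104, 2.64 and 42.9 FPKM in 5xFAD, against 6.76, 3.42, 6.96 and 2.86 FPKM in wild type. The sum of 12 such genes was 66.2, 667, 66.1 and 297 FPKM in 5xFAD and 72.2 to 89.8 FPKM in wild type libraries, with 0 of the 12 at an unadjusted p under 0.05 and a median log2 fold change of 1.18. Without 5xFAD-2 and 5xFAD-21, the libraries highest in Hspa1a and Fos, this median was −0.32, and 1 of the 12 genes was above 0. In that setting the median of all genes was −0.02. The 10 chaperone genes were all above 0 there, Hspa1a by only 0.02 (SE 0.25). None of the 10 had an unadjusted p under 0.05, beside 2.44% of all genes that were higher. The part of the immediate early signal in the chaperone values was not tested further.

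Dnajb1, the J-domain partner of inducible HSP70, had the pattern most like that of Hspa1a among the genes tested other than the 10 (r = 0.99 over 8 libraries), at 9.40, 68.1, 10.8 and 44.7 FPKM in 5xFAD, against 13.2, 11.7, 11.2 and 11.6 FPKM in wild type. It was followed by Fos, Jun, Junb and Dusp1, each with r between 0.97 and 0.98. The mean deviation of the 7 abundant chaperones (Hspa8, Hspa9, Hsph1, Hsp90aa1, Hsp90ab1, Hspd1 and Hspe1) was, again with the 10 left out, most like that of Dhrs7, Scarb2, Tomm7, Vmp1 and Sacm1l (r = 0.97 to 0.99). Tomm7 is a small subunit of the mitochondrial import pore and Scarb2 a lysosomal membrane protein. Tomm7 stood at 63.8, 72.5, 56.3 and 61.4 FPKM in 5xFAD, against 48.1, 46.1, 54.9 and 53.3 FPKM in wild type.

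**Figure D4:**
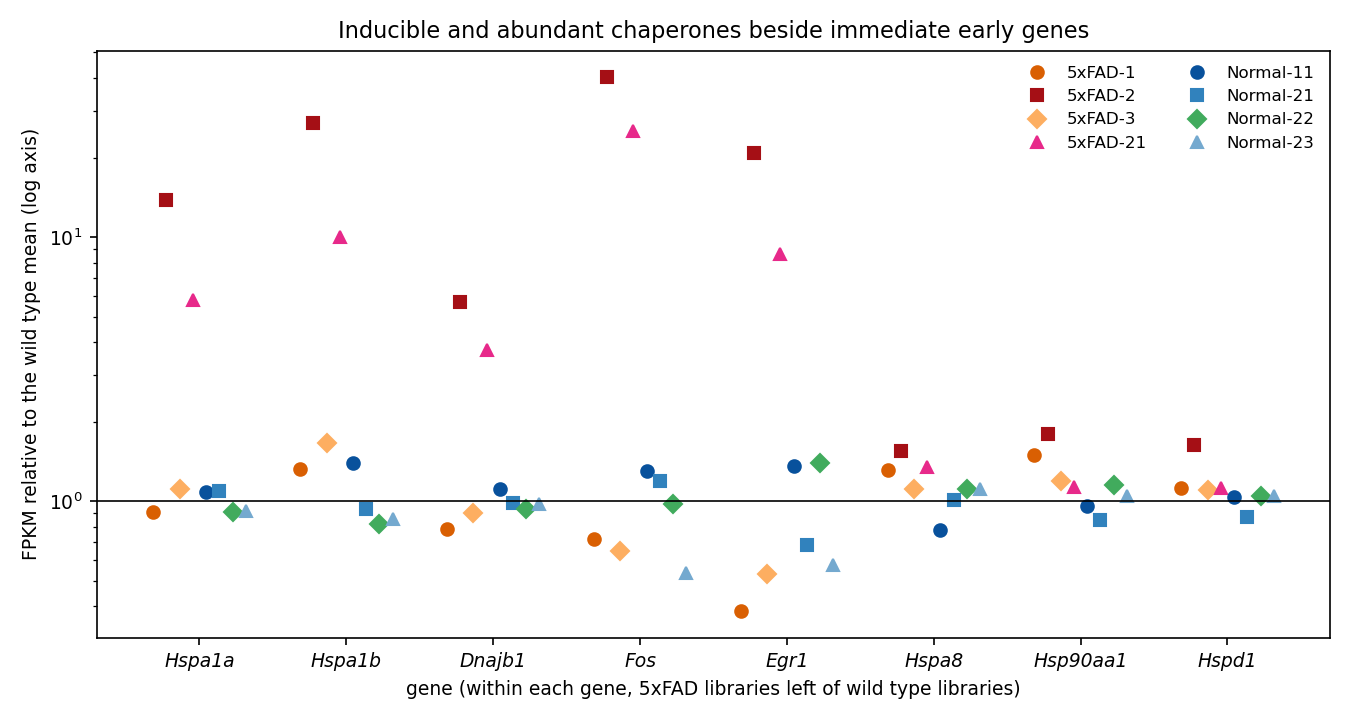
FPKM in each library relative to the wild type mean, on a log axis, for inducible and abundant chaperones beside immediate early genes, with 5xFAD libraries left of wild type libraries within each gene. 5xFAD-2 and 5xFAD-21 stand far above the others for Hspa1a, Hspa1b, Dnajb1, Fos and Egr1, whereas 5xFAD-1 and 5xFAD-3 lie below the wild type range for Dnajb1 and Egr1, within it for Fos, and 5xFAD-3 lies above it for Hspa1a and Hspa1b (2.43 FPKM of Hspa1b, against at most 2.05 FPKM in wild type).

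The partners of the 10 genes were examined in lists, of which 0 genes passed the adjusted threshold (limma, Benjamini-Hochberg over all genes). Of 9 tested other members of the HSP70 and HSP110 families, 8 were above 0 (median 0.30), beside 48.7% of all genes. At an unadjusted p under 0.05, 3 were higher, beside 4.6% of all genes. These were Hspa12a, a distant brain-enriched relative (log2 fold change 0.56, SE 0.17), and the endoplasmic reticulum chaperones Hspa5 (BiP; 0.65, SE 0.22) and Hyou1 (its exchange factor; 0.37, SE 0.16). Hspa5 stood at 199, 373, 374 and 267 FPKM in 5xFAD, against 207, 197, 159 and 189 FPKM in wild type, with 5xFAD-1 within the wild type range. Without 5xFAD-2, 2 of the 9 (Hspa12a and Hspa5) were still higher at an unadjusted p under 0.05, beside 3.09% of all genes. Without 5xFAD-2 and 5xFAD-21, 2 were (Hspa12a and Hyou1), beside 2.44% of all genes. Hspa4, another HSP110, was at 0.25 (SE 0.11). The remaining HSP90 genes were at 0.36 (SE 0.18) for Hsp90b1 of the endoplasmic reticulum and 0.11 (SE 0.16) for mitochondrial Trap1.

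Of 8 BAG3 partners of selective autophagy, 6 were above 0, beside 48.7% of all genes. At an unadjusted p under 0.05, 4 were higher, beside 4.6% of all genes. They were the small heat shock proteins Hspb6 (0.73, SE 0.25), Hspb1 (0.97, SE 0.34) and Cryab (0.71, SE 0.25), and the autophagy receptor Sqstm1 (0.35, SE 0.15). Cryab was more abundant than Hspd1 or Hspe1, at 321, 261, 236 and 234 FPKM in 5xFAD, against 105, 134, 245 and 186 FPKM in wild type, and Normal-22 lay within the 5xFAD range. Without 5xFAD-2, 3 of these 4 (Cryab, Hspb1 and Hspb6) were still at an unadjusted p under 0.05, beside 3.09% of all genes. Without 5xFAD-2 and 5xFAD-21 none of the 8 was, beside 2.44% of all genes. The rest of the list differed little over all 8 libraries. Hspb8 was at 0.04 (SE 0.32), Map1lc3b at 0.04 (SE 0.17), Synpo2 at −0.002 (SE 0.16) and Stub1 at −0.16 (SE 0.14).

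Of 21 tested HSP90 co-chaperones and adaptors, 18 were above 0, with a median of 0.10, beside 48.7% of all genes. At an unadjusted p under 0.05, 2 were higher, beside 4.6% of all genes. These were Ptges3 (0.35, SE 0.11), whose product p23 stabilizes closed HSP90, and Cacybp (0.35, SE 0.13). Without 5xFAD-2 only Ptges3 was higher at this p, beside 3.09% of all genes. Without 5xFAD-2 and 5xFAD-21 none was, beside 2.44% of all genes. Stip1, which hands clients between HSP70 and HSP90, was at 0.27 (SE 0.12) and Tomm70a, the mitochondrial receptor for chaperone-bound precursors, at 0.29 (SE 0.13). The 3 genes below 0 were Cdc37 (−0.25, SE 0.13), Fkbp5 (−0.42, SE 0.40) and Fkbp4 (−0.01, SE 0.14). Among 11 HSP70 exchange factors and regulators none had an unadjusted p under 0.05. With a median of 0.09, 7 of them were above 0, beside 48.7% of all genes. St13, which holds HSP70 in its ADP state, was at 0.33 (SE 0.17), Bag1 at 0.29 (SE 0.16), Bag2 at −0.25 (SE 0.17) and Bag4 at 0.20 (SE 0.16).

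Of 18 mitochondrial import motor and protease genes, 15 were above 0, with a median of 0.09, beside 48.7% of all genes. Clpx, the unfolding subunit of the matrix ClpXP protease, was higher in 5xFAD at an unadjusted p under 0.05 (0.43, SE 0.13), beside 4.6% of all genes. The protease Htra2 was lower (−0.27, SE 0.11), beside 3.35% of all genes. Without 5xFAD-2 and 5xFAD-21 none of the 18 was either, beside 2.44% of all genes that were higher. Phb was at 0.32 (SE 0.19) and Dnaja3, the J-domain partner of HSPA9, at 0.27 (SE 0.16). The cytosolic chaperonin TRiC, which folds actin and tubulin, had all 7 tested subunits above 0 by 0.07 to 0.24, beside 48.7% of all genes. Their median was 0.17 and none had an unadjusted p under 0.05. Those with the smallest p were Cct4 (0.24, SE 0.11), Cct8 (0.22, SE 0.12), Tcp1 (0.17, SE 0.10) and Cct3 (0.19, SE 0.12).

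Of 17 other heat-inducible genes, 14 were above 0, with a median of 0.28, beside 48.7% of all genes. At an unadjusted p under 0.05, 5 were higher (Dnajb4, and the already named Hspb1, Cryab, Cacybp and Sqstm1), beside 4.6% of all genes. The count was 3 without 5xFAD-2, beside 3.09%, and 0 without 5xFAD-2 and 5xFAD-21, beside 2.44%. Dnajb4, a J-domain partner of HSP70, stood at 49.4, 68.4, 46.3 and 57.8 FPKM in 5xFAD, against 34.6, 33.2, 45.2 and 37.8 FPKM in wild type, with no overlap (log2 fold change 0.55, SE 0.15, limma adjusted p = 0.541). The heat shock factor genes Hsf1 and Hsf2 differed by less than the spread between libraries, with Hsf1 at 13.2 ± 1.20 FPKM in 5xFAD and 13.4 ± 1.35 FPKM in wild type (SD, n = 4 each; log2 fold change −0.02, SE 0.11) and Hsf2 at 10.7 ± 0.650 FPKM in 5xFAD and 10.7 ± 0.707 FPKM in wild type (−0.01, SE 0.10). Hsf4, which encodes a heat shock factor known for its role in the lens and is named here after its values were seen, stood at 4.41, 4.54, 4.06 and 5.27 FPKM in 5xFAD, against 1.75, 1.79, 2.40 and 1.16 FPKM in wild type, with no overlap (log2 fold change 1.35, SE 0.22, limma adjusted p = 0.283).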

How the data were processed

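Total RNA, depleted of ribosomal RNA, was sequenced from 8 pools of glands. The authors trimmed reads with Trimmomatic, aligned them with STAR to GRCm38.p6 (mm10) and computed FPKM per gene with Cuffnorm on the GENCODE M17 annotation, and the deposited FPKM table was used as it stands. Tool versions and the library normalization chosen are not given in the sources used here. The table holds no counts, so the reads behind each gene's value could not be taken from it and no counting interval was given. The read totals in the study's quality table were not used. FPKM summed to 886793 to 1947795 per library over all gene rows and to 320286 to 391275 over protein-coding rows. The table's average column, the authors' mean, was not used.

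Protein-coding genes were tested where their FPKM averaged 1 or more, with limma 3.58.1 (R 4.3.3, trend) on log2(FPKM + 0.1), 4 5xFAD against 4 wild type libraries, with Benjamini-Hochberg adjustment over all 13094 genes. The fit was also run on simulated libraries, in which genes varied independently and no library stood apart as 5xFAD-2 did here. That run does not show how the fit behaves with such a library. Libraries are separate pools, so p-values measure the spread between pools. Ratios were compared with two-sided exact permutation tests. Gene positions came from GENCODE M21 (GRCm38) and promoters from RefSeq (GRCm38.p6), read with Python 3.11.15 and Biopython 1.88. Protein sequences were not analysed here.

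The genes and lists were chosen with earlier results of these data known. Named were all 10 members, a fixed set of related chaperones and factors (Hspa5, Hyou1, Hsp90b1, Trap1, Hsf1 and Hsf2, with Fos and Egr1), up to 4 genes of each list by unadjusted p, and the 5 genes most like each of 2 patterns. Alternatives varied the pseudocount, filters, scaling, GC correction, weights, covariates and libraries.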

Additional observations from a re-analysis of the deposited data

Results flagged for a closer look

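Of 32 groups of 4 libraries (10 chaperone genes and 6 ratios or sums, in each genotype), 3 held a library far from the other 3, where chance gives about 1 in 20 groups. Hspd1 in 5xFAD stood at 126 FPKM in 5xFAD-2, against 85.1 to 86.6 FPKM in the other 3 5xFAD libraries. Hspd1 in wild type stood at 66.8 FPKM in Normal-21, against 80.1 to 80.6 FPKM in the other 3 wild type libraries. Bag3 in 5xFAD stood at 16.2 FPKM in 5xFAD-2, against 7.03 to 8.56 FPKM in the other 3 5xFAD libraries. Both 5xFAD values came from the library that was the highest in 10 of 10 chaperone genes, in FPKM as deposited and not scaled to library totals.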

How the results depend on the processing

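Over 24 alternative limma settings, 0 of 240 values of the 10 genes turned their sign and 0 passed an adjusted p of 0.05. The count of the 10 that were higher at an unadjusted p under 0.05 was 5 as reported, beside 4.6% of all genes. It was 3 beside 4.44% with no filter on low values, and 8 beside 6.77% after scaling to the same protein-coding total. With a term for unread bases it was 3 beside 5.32%, and without 5xFAD-2 and 5xFAD-21 it was 0 beside 2.44%. Without Normal-22 and 5xFAD-2, a setting chosen after seeing the data, it was 2 beside 8.33%. Leaving out each replicate in turn gave 2 to 7. There were 2 without 5xFAD-2 (beside 3.09% of all genes) or Normal-21 (2.28%). There were 3 without 5xFAD-21 (4.09%), Normal-11 (3.22%) or Normal-23 (2.86%), and 7 without 5xFAD-3 (4.81%). With the replicate number as a block the count was 3, beside 2.96% of all genes. The labels give this number (1 to 4) in a field apart from the numbers in the library names. Libraries of the same replicate number deviated together in only 2 of 4 pairs (r = −0.34 to 0.24), so the numbers were not taken as a pairing. Over all genes at an unadjusted p under 0.05, 602 were higher and 439 lower as reported, 887 and 217 after scaling to the protein-coding total, and 696 and 914 with the unread-base term. The number of all genes past the adjusted threshold was 5 as reported, 94 without Normal-22, 42 without Normal-22 and 5xFAD-2, 9 with array weights, 8 with no filter or with all gene types, 1 on untransformed FPKM and 0 when a value above 0 was required in every library. The cause of these shifts was not tested. With the pattern of 2 triplets in place of 3, 6 of the searched genes in place of 3 held a match, beside 15.1% of all promoters in place of 0.603%. The lack of counts limits what can be said of low genes such as Hspa1a and Hspa1b.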
